A study of Mus musculus with 6 samples.

Results

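Digestive enzyme transcripts of the pancreas were followed in 6 RNA-seq libraries of sorted regulatory T cells (Tregs), CD4 T cells that express FOXP3 and hold back immune reactions. The 10 genes, out of 53379 in the count tables, were selected on 2 grounds: each encodes an enzyme or enzyme cofactor of pancreatic acinar cells, and the group had been seen to be highest in KO replicate 2. The level in that library therefore chose the genes and is given here as a description. All cells came from C57BL/6 mice aged 3 months. The 3 WT libraries came from Foxp3YFP-CrexJunb+/+ mice and the 3 KO libraries, titled bKO in the labels, from Foxp3YFP-CrexJunbFlox/Flox mice. Both genotypes thus carry a YFP-tagged Cre recombinase made under Foxp3, and only in KO does it meet a floxed Junb, which encodes an AP-1 family transcription factor. The sources used here give neither the organ of origin nor the sorting gate, and nothing in them says that the libraries of a genotype were separate animals, so spread between them may be technical.

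Acinar cells make up most of the exocrine pancreas. They synthesise digestive enzymes in very large amounts, store most proteases as inactive proenzymes in zymogen granules, and release them into the duct towards the gut. The genes are driven by acinar transcription factors, among them the PTF1 complex of PTF1A and RBPJL, and their mRNAs rank among the most abundant of the body. T cells are not known as a source of most of these enzymes. Of the 10 genes, Amy2a5 encodes a pancreatic alpha-amylase, which cleaves starch. Prss2 and Try4 encode trypsinogens, Ctrb1 chymotrypsinogen B, Cela2a and Cela3b elastase-type proteases, and Cpa1 and Cpb1 the procarboxypeptidases A1 and B1, which trim residues from the C-terminus of peptides. Pnlip encodes pancreatic triglyceride lipase and Clps its cofactor colipase.

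The PTF1 complex is known to bind a bipartite site made of an E-box and a TC box, so the 250 bases before each gene's RefSeq start were searched for these. Windows came from RefSeq on GRCm38.p6, which matched 9 of the 10 genes (not Clps). RefSeq starts can differ from the GENCODE gene spans given below: 5 windows hold bases inside the span, 250 for Pnlip, 155 for Cela2a, 138 for Amy2a5, 20 for Cela3b and 3 for Try4. The E-box letters CACCTG, read on both strands, were present in 5 of the 9 windows and in 17.2% of 32851 mouse windows of that length. TTTCCC, taken for the TC box, was found in 4 of 9 against 21.9%, and TATAAA, the TATA box, in 4 of 9 against 12.4%. Both E-box and TC box letters occurred in 2 windows, those of Prss2 and Cela2a. No matches overlap one another in these windows, and a match describes letters only. The windows of 4 genes are shown, with matches in capitals: Cpb1 and Ctrb1 because nearly all of their reads lay in 1 library, and Prss2 and Try4 because they lie inside a T cell receptor locus. Their positions are chr3:20275734-20275983 (minus strand), chr8:111691011-111691260 (minus), chr6:41521526-41521775 (plus) and chr6:41302022-41302271 (plus), in that order.
Cpb1: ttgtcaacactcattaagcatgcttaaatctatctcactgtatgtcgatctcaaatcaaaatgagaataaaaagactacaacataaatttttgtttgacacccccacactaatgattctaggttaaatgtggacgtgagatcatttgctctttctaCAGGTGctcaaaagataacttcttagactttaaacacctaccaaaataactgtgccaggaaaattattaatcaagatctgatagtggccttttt
Ctrb1: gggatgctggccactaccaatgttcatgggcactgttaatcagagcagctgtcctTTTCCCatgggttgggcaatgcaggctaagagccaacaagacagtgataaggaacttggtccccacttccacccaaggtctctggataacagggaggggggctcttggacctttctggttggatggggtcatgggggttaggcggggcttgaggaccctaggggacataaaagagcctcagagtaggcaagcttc
Prss2: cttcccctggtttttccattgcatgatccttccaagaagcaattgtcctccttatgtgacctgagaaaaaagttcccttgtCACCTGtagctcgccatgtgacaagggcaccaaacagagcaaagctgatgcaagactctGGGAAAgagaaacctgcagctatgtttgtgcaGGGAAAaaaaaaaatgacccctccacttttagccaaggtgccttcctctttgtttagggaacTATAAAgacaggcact
Try4: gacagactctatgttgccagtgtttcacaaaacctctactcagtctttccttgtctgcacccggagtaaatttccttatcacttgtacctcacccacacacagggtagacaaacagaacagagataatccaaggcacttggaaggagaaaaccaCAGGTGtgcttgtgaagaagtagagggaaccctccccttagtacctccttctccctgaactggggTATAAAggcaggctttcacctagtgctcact
The Cpb1 window holds 1 E-box match, on the opposite strand, and the Ctrb1 window 1 TC box match. The Prss2 window holds 1 E-box match, 2 TC box matches and 1 TATA match, and the Try4 window 1 E-box and 1 TATA match.

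Library totals lay between 33784183 and 41231173 counts, and levels are given as counts or as CPM, the counts scaled to a common depth with TMM library sizes. Junb lay between 77.5 and 89.5 CPM in WT and between 49.6 and 57.3 CPM in KO. In the edgeR fit described below, which called 0 of 20475 genes, Junb was not called either. Summed over 12 Treg and T cell genes, led by the receptor constant genes Trbc2 and Trbc1, levels lay between 6834 and 9285 CPM. A count of 0 allows up to 3 counts, or 0.0743 to 0.0876 CPM depending on the library. PCR copies are counted as reads, so intervals cover counting error only.

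Summed over the 10 genes, WT replicates 1, 2 and 3 held 96, 316 and 110 counts, and KO replicates 1, 2 and 3 held 107, 2109 and 352. KO replicate 2 held 68.3% of all 3090 counts (95% exact Clopper-Pearson interval 66.6 to 69.9%). On the CPM scale the sum was 60.2 in KO replicate 2, between 2.73 and 2.84 in WT replicates 1 and 3 and KO replicate 1, and 9.23 and 9.49 in WT replicate 2 and KO replicate 3. The libraries thus lay at 3 levels, and the middle level held 1 library of each genotype. The sum in KO replicate 2 was 21.2 times the median of the other 5 libraries; it was 9.99 times with either WT replicate 1 or WT replicate 3 left out and 10.04 times without KO replicate 1. In KO replicate 2 the 10 genes made up 60.8 ppm of all counts. A count was present for all 10 genes in KO replicate 2, for 9 in WT replicate 2, for 4 and 5 in WT replicates 1 and 3, and for 3 and 5 in KO replicates 1 and 3.

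**Figure D1:**
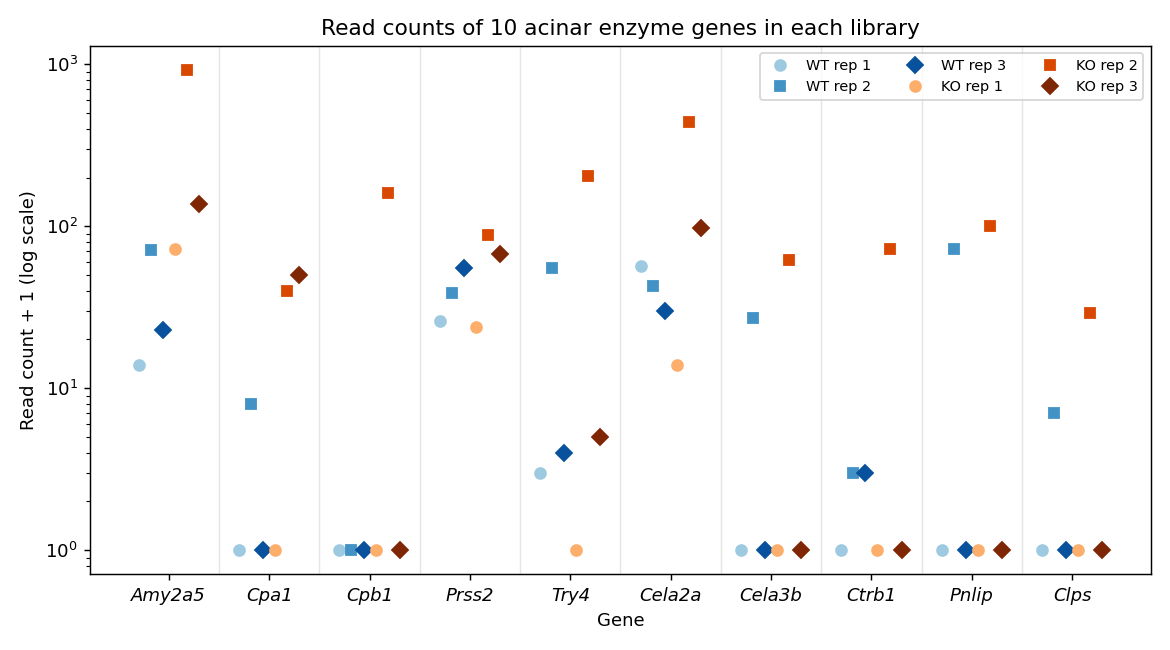
Read count plus 1 (log scale) of each of the 10 acinar enzyme genes, 1 point per library, with WT in blue and KO in orange to brown. KO replicate 2 is the highest point for every gene but Cpa1, and points at 1 on the axis are counts of 0.

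Of the 10 genes, 9 were highest in KO replicate 2. Over all 32929 genes with a count, 17.4% were highest there; the selection used this measure, so nothing is read from the contrast. After 0.5 CPM was added to each value, 5 of the 10 genes exceeded the next highest library at least 2-fold, against 0.951% of genes. Just inside that threshold stood Try4 with a ratio of 3.05, and just outside it Clps with 1.93 and Cela3b with 1.78.

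The amylase Amy2a5 (ENSMUSG00000074268.4, chr3:113247178-113258837, minus strand) gave the most reads. It had 13, 70 and 22 counts in WT replicates 1, 2 and 3 and 71, 922 and 136 in KO replicates 1, 2 and 3. KO replicate 2 stood at 26.3 CPM (95% exact Poisson interval 24.7 to 28.1), which is 7.19 times the next library, KO replicate 3 at 3.66 CPM. The other KO library, replicate 1, at 1.88 CPM, lay below WT replicate 2 at 2.04 CPM, so the genotypes overlapped. Amylase genes lie in a cluster of near-identical copies, and 53.5% of the 50-base windows of Amy2a5 exons, the read length, also occur in another annotated gene. The count of Amy2a4 was identical to that of Amy2a5 in all 6 libraries, so these reads belong to a group of copies and cannot be given to 1 of them. The salivary amylase gene Amy1, on the same chromosome, shares 0.867% of those windows and had 180, 179, 115, 194, 95 and 122 counts in the same order of libraries. Its lowest count was in KO replicate 2, where Amy2a5 was highest; Amy1 shares 1128 exon bases with Rnpc3, an overlapping gene.

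Trypsinogens, which become trypsin and then activate the other proenzymes, behaved in 2 ways. Try4 (ENSMUSG00000054106.7, chr6:41302269-41305532, plus strand) had 2, 54 and 3 counts in the WT libraries and 0, 204 and 4 in the KO libraries. It was at or near 0 in 4 libraries and high in 1 of each genotype, at 5.83 CPM in KO replicate 2 (5.05 to 6.68) and 1.58 in WT replicate 2 (1.19 to 2.06), a ratio of 3.69. Prss2 (ENSMUSG00000057163.3, chr6:41521787-41525079, plus strand) had 25, 38 and 54 counts in WT and 23, 87 and 66 in KO. Its level ran from 0.609 to 2.48 CPM, with the KO libraries at both ends, and KO replicate 2 was only 1.40 times KO replicate 3. Of the windows of Try4, 65.6% are shared with other genes, 45.9% with Try5 and 19.8% with Try10, whereas 7.83% of those of Prss2 are shared.

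The other proteases were led by Cela2a (ENSMUSG00000058579.5, chr4:141814962-141826160, minus strand), an elastase. Its counts were 56, 42 and 29 in WT and 13, 439 and 97 in KO. KO replicate 2 reached 12.5 CPM (11.4 to 13.8), 4.80 times KO replicate 3, while KO replicate 1 was the lowest library at 0.344 CPM. Cela2a overlaps its neighbour Ctrc by 305 exon bases on the same strand and the apoptosis gene Casp9 by 94 on the opposite strand, and whether counting used strand is unstated in the sources used here. Casp9 had between 406 and 723 counts per library, so some of the low Cela2a counts may not be its own; their origin was not tested. Cela3b (ENSMUSG00000023433.8, chr4:137420999-137430540, minus strand), also of the elastase family, was seen in 2 libraries only, with 26 counts in WT replicate 2 and 61 in KO replicate 2, or 0.759 and 1.74 CPM.

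Ctrb1 (ENSMUSG00000031957.6, chr8:111686519-111691010, minus strand) had 0, 2 and 2 counts in WT and 0, 71 and 0 in KO. KO replicate 2 stood at 2.03 CPM (1.58 to 2.56), and the 4 counts elsewhere were near the detection limit. Cpb1 (ENSMUSG00000011463.5, chr3:20248264-20275733, minus strand) had 159 counts in KO replicate 2 and 0 in each of the other 5 libraries. Its 4.54 CPM there (3.86 to 5.30) was 51.8 times the highest floor of 3 counts among the other libraries. That ratio leaves out the counting error in KO replicate 2. Among all genes with a count, Cpb1 ranked 1 for the ratio of KO replicate 2 to the next highest library, and Amy2a5, tied with its copies, ranked 4. Cpa1 (ENSMUSG00000054446.8, chr6:30639218-30645363, plus strand) departed from the rest: it had 0, 7 and 0 counts in WT and 0, 39 and 49 in KO, so KO replicate 3, not KO replicate 2, was highest. The intervals of these 2 libraries overlapped, 0.977 to 1.75 CPM in KO replicate 3 and 0.792 to 1.52 in KO replicate 2.

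For fat digestion, Pnlip (ENSMUSG00000046008.7, chr19:58652498-58681788, plus strand) had 71 counts in WT replicate 2, 99 in KO replicate 2 and 0 in the other 4 libraries. These 2 levels, 2.07 CPM (1.62 to 2.62) and 2.83 CPM (2.3 to 3.44), were the closest of the 10 genes in these 2 libraries. Clps (ENSMUSG00000024225.4, chr17:28558149-28560766, minus strand) was seen in the same 2 libraries, with 6 and 28 counts, or 0.175 and 0.800 CPM. None of the 50-base exon windows of Cpa1, Cpb1, Ctrb1, Pnlip or Clps occur in another annotated gene. Cpa1, Cpb1, Cela3b, Ctrb1, Pnlip and Clps together held 0, 112 and 2 counts in WT and 0, 457 and 49 in KO, so WT replicate 1 and KO replicate 1 had no count of any of them, and all 49 in KO replicate 3 were Cpa1.

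Levels between genes were compared per kilobase of exon in KO replicate 2. Cela2a and Try4 were highest, at 7.28 and 7.27 CPM per kb, followed by Amy2a5 at 6.63. Prss2 stood at 3.05 and Ctrb1 at 2.31, and the other 5 genes lay between 0.636 (Cpa1) and 1.38 (Cpb1). Shared windows make the values of Try4 and Amy2a5 sums over copies.

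The makeup of the acinar reads differed between libraries. In KO replicate 2, Amy2a5 gave 43.7% of the 10-gene counts, Cela2a 20.8%, Try4 9.67% and Cpb1 7.54%. In WT replicate 2 Pnlip gave 22.5% and Amy2a5 22.2%, followed by Try4 with 17.1%, and Cpb1 gave none. KO replicate 3 was made up of Amy2a5 (38.6%), Cela2a (27.6%), Prss2 (18.8%) and Cpa1 (13.9%), with 4 counts of Try4 and none of the other 5 genes. Of the small sum in WT replicate 1, 58.3% was Cela2a; in WT replicate 3, 49.1% was Prss2, and in KO replicate 1, 66.4% was Amy2a5.

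Relative to KO replicate 2, WT replicate 2 held 73.3% of the CPM of Pnlip (95% exact interval 53.3 to 100.5), 44.7% of Prss2 (29.7 to 66.1), 43.6% of Cela3b (26.4 to 70.0) and 27.1% of Try4 (19.7 to 36.7). It held 9.78% of Cela2a (6.95 to 13.4), 7.76% of Amy2a5 (6.00 to 9.91), 2.88% of Ctrb1 (0.342 to 10.8) and 0% of Cpb1, with an upper bound of 2.40%. These intervals do not share a common value, so by counting error alone the 2 libraries did not differ by 1 factor for all genes. Against KO replicate 2, KO replicate 3 held 118.6% of Cpa1, 71.6% of Prss2, 20.9% of Cela2a, 13.9% of Amy2a5 and 1.85% of Try4.

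**Figure D2:**
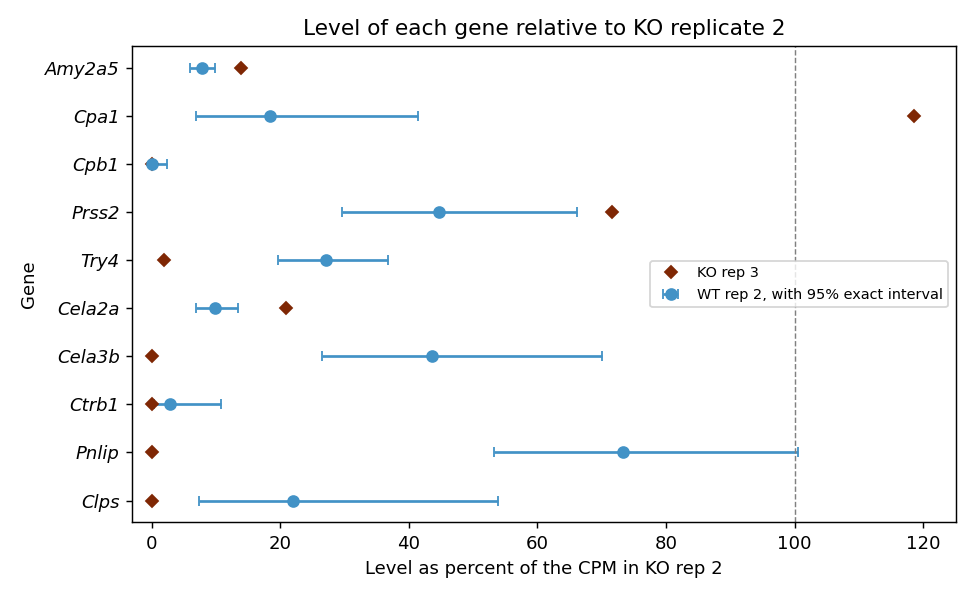
Level of each gene in WT replicate 2 (blue circles, bars are 95% exact intervals of counting error) and KO replicate 3 (brown diamonds) as a percent of its CPM in KO replicate 2, with the dashed line at 100%. WT replicate 2 runs from 0% for Cpb1 to 73.3% for Pnlip, and KO replicate 3 from 0% for 5 genes to 118.6% for Cpa1.

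The genotypes were compared in a fit over all genes. For the 10 genes it is a description and no test of genotype, because KO replicate 2 chose them. Only Amy2a5, Prss2 and Cela2a passed the filter on low counts, and the other 7 were not tested. Mean levels were 0.988 ± 0.918 CPM in WT and 10.6 ± 13.6 in KO for Amy2a5 (SD, n = 3 each), 1.06 ± 0.311 and 1.62 ± 0.947 for Prss2, and 1.19 ± 0.452 and 5.17 ± 6.48 for Cela2a. The KO SD exceeded the KO mean for Amy2a5 and Cela2a. With edgeR's quasi-likelihood test, log2 differences of KO minus WT were 3.43 (SE 1.18) for Amy2a5, 0.62 (SE 0.67) for Prss2 and 2.12 (SE 1.12) for Cela2a, each with a Benjamini-Hochberg adjusted p = 0.9999. These values include the library that chose the genes and are a description. Of the 20475 genes tested, 0 (0%) passed in edgeR, where 590, Amy2a5 among them, had an unadjusted p under 0.05. DESeq2 called 63 (0.192%) of the 32774 genes to which it gave an unadjusted p, none of the 10. Cpb1 and Ctrb1 got no adjusted p in DESeq2, so it could not call them.

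The same comparison was made without KO replicate 2. The selection had set that library against the other 5, so their values bore on it too, and these estimates are not independent of it. Amy2a5 then differed by 1.49 (SE 0.90), Prss2 by 0.18 (SE 0.77) and Cela2a by 0.32 (SE 0.97) on the log2 scale, each with an edgeR adjusted p = 0.9999. All 3 estimates thus fell by more than 1.5 times when that library was left out, and none passed the threshold. Here edgeR called 0 of 21360 genes (0%; 681 at an unadjusted p under 0.05, no acinar enzyme among them), or 3 genes when KO replicate 1 was also left out (KO replicate 3 is then the only KO library and is assumed to vary as the WT libraries do), and DESeq2 called 75 of 32133 (0.233%). The mean log2 of the 10-gene sum was 1.51 higher in KO than in WT with all libraries, 0.33 higher without KO replicate 2 and 2.54 higher without KO replicate 1. File names carry 1 of 2 numbers, whose meaning the sources used here do not state. WT replicates 1 and 2 and KO replicate 2 share 1 of them, and the difference was 3.57 among these and 0.93 among the other 3 libraries.

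Other secretory products of acinar cells were listed as 28 further genes, of which 23 had a count. Of these, 16 were highest in KO replicate 2, and 11 exceeded the next library at least 2-fold. Among the 11, Amy2a1, Amy2a2, Amy2a3, Amy2a4, Amy2b, Try5, Try10 and Ctrc share exon windows with Amy2a5, Try4 or Cela2a. Their counts can thus hold the same reads as the selected genes. Only Cel, Pnliprp1 and Rnase1 share no window with another annotated gene. The shares of all genes were 17.4% and 0.951%, but with reads in common nothing is read from the contrast. Summed, the 28 genes lay at 10.6, 56.0 and 13.7 CPM in WT and 27.8, 165 and 26.5 CPM in KO. KO replicate 2 was highest and WT replicate 2 next, and that second place rested on Klk1, which gave 35.2 of the 56.0 CPM. Without Klk1, left out after its values were seen, the sums were 6.30, 20.8 and 13.4 CPM in WT and 20.1, 132 and 23.0 CPM in KO. The 5 amylase copies of the list gave 97.6 CPM in KO replicate 2 and 7.91 CPM in WT replicate 2. The other 22 genes, with neither Klk1 nor amylases, stood at 33.96 CPM in KO replicate 2 and between 5.06 and 12.9 CPM elsewhere. Of the copies, Amy2a2, Amy2a3 and Amy2a4 matched Amy2a5 to within 1 count, Amy2b had 4, 40 and 10 counts in WT and 33, 347 and 56 in KO, and Amy2a1 0, 19 and 5 in WT and 30, 303 and 48 in KO. Klk1, a tissue kallikrein also made in salivary gland and kidney, had 150, 1205 and 12 counts in WT and 291, 1183 and 132 in KO, so WT replicate 2 and KO replicate 2 were level. Cela1, an elastase also made outside the pancreas, had 90, 67 and 286 in WT and 296, 372 and 155 in KO and did not set KO replicate 2 apart.

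Among the enzymes of that list with fewer reads, carboxyl ester lipase Cel had 45 counts in WT replicate 2, 120 in KO replicate 2 and 0 elsewhere, the pattern of Pnlip, Clps and Cela3b. The lipase-related Pnliprp1 had 64 counts in KO replicate 2 and 1 in WT replicate 2, closer to Ctrb1 and Cpb1. Rnase1, a secreted ribonuclease, had 117 in KO replicate 2, 23 in KO replicate 3 and 16 in WT replicate 1. Chymotrypsin C, Ctrc, had 31, 49 and 29 in WT and 13, 173 and 52 in KO, much like Cela2a, with which it shares exon bases. Not all followed: Ctrl, a chymotrypsin-like protease, was highest in KO replicate 1 (84 counts against 7 in KO replicate 2), the granule protein Zg16 in WT replicate 3 (113 against 0), and Gp2, a zymogen granule membrane protein, in WT replicate 2 and KO replicate 3 (45 and 42 against 0). Pnliprp2, Cuzd1, Spink1, Serpini2 and Reg2 were at 0 in all 6 libraries.

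Regulators and secretory machinery of acinar cells were followed in 14 genes. Ptf1a, Nr5a2, Gata4, Cckar, Aqp12 and Tmed11 were at 0 in every library. Rbpjl, the acinar subunit of PTF1, had 4 counts and Gata6 had 11, both in KO replicate 2 alone. The 4 counts of Rbpjl are near the detection limit. Rbpjl shares 149 exon bases with Matn4, and Gata6 shares 93 with 1010001N08Rik, each on the opposite strand. The origin of these counts was not tested. Bhlha15, which encodes the MIST1 factor of acinar and plasma cells, had 5, 30 and 48 counts in WT and 39, 129 and 142 in KO, so it was as high in KO replicate 3. Xbp1, a regulator of the secretory pathway used by many cells, ran from 820 to 1978 counts, highest in WT replicate 2. Dnajc3 and Sel1l, of the endoplasmic reticulum of many cells, had at least 1663 counts in every library and were not highest in KO replicate 2. Erp27 was highest in KO replicate 3 (141 counts against 44 in KO replicate 2) and Pdia2 in KO replicate 1 (73 against 36).

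Markers of neighbouring tissues were set beside these levels. Of 16 islet genes, 11 were at 0 in all libraries, Ins1 and Ins2 among them. Gcg, which encodes glucagon, had 20 and 24 counts in WT replicates 1 and 2 and 0 elsewhere, and the prohormone convertase gene Pcsk1 had 0 to 3 in WT and 87, 60 and 64 in KO. Of 12 duct and epithelial genes, Krt19, Cftr, Sox9 and Cldn7 were at 0 throughout, whereas Krt18 had 11 to 35 counts in WT and 168, 86 and 107 in KO, with 86 in KO replicate 2, and Epcam had 97, 11 and 132 in WT and 45, 65 and 95 in KO. Of 11 salivary gland genes matched, 8 were at 0, and their sum, made up almost wholly of Amy1 and Bhlha15, ran from 4.06 to 7.11 CPM. Amy1 gave 2.71 CPM and Bhlha15 3.68 CPM in KO replicate 2. In the intestinal list Fabp2, Muc2, Reg3b and Apoa4 were at 0, and its sum was mostly Lyz1, a lysozyme that myeloid cells also make, with 1165, 4081 and 420 counts in WT and 3136, 4883 and 1983 in KO. Vil1, of the epithelial brush border, had 51 counts in WT replicate 2 and 18 to 23 elsewhere. In the liver list Alb and Ttr, 2 abundant liver transcripts, were at 0, while Ahsg had 31 counts in KO replicate 2 alone and Cyp2e1 had 4 to 17 counts per library. The sum of the liver list was 11.1, 52.9 and 1.91 CPM in WT and 21.1, 63.4 and 27.0 CPM in KO, nearly all of it Trf. Trf, which encodes transferrin and is also made by other cells, had 371, 1795 and 53 counts in WT and 791, 2185 and 983 in KO, so it was highest in KO replicate 2 and next in WT replicate 2. Adipoq, of fat cells, had 34, 12 and 64 counts in KO and 0 in WT, and Acsl1, a fatty acid enzyme gene used by many cells, had 261 to 519, highest in KO replicate 2. The fibroblast genes Col3a1 and Dcn were at 0 in all libraries, while Pecam1, of vessels and some blood cells, had 3468 to 4586 counts and Acta2 379 to 449.

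Blood cell markers varied over a larger range of levels. The myeloid list of 14 genes summed to 367, 1147 and 219 CPM in WT and 930, 1274 and 490 CPM in KO. Of its 14 genes, 8 were highest in KO replicate 2, against 17.4% of all genes with a count. The list was chosen with earlier results known, so nothing is read from the contrast. The macrophage complement gene C1qb had 110, 331 and 1 counts in WT and 82, 1032 and 323 in KO, and C1qa 16, 80 and 0 in WT and 0, 228 and 48 in KO. C1qc had 28, 201 and 0 counts in WT and 43, 330 and 34 in KO. All 3 C1q genes were highest in KO replicate 2 and next in WT replicate 2; KO replicate 3 came after these for C1qa and C1qb, and KO replicate 1 for C1qc. Lyz2 and Cst3, the myeloid genes with most reads, had 23511 and 5651 counts in KO replicate 2 and 19419 and 5496 in WT replicate 2. Named after their values were seen, Itgam, Itgax and S100a9 were highest in WT replicate 2, and Cd14, Fcgr3 and S100a8 in KO replicate 1. The 13 B cell genes, all of them present, summed to 2414, 8777 and 1956 CPM in WT and 5309, 6479 and 2984 in KO, highest in WT replicate 2. Ighm, the heavy chain of IgM, led them with 75655, 255918 and 73050 counts in WT and 169539, 202042 and 86812 in KO, followed by the B cell receptor gene Cd79b with 1777 or more in each library. Erythroid genes, led by the globin genes Hba-a1 and Hba-a2, summed highest in KO replicate 1 (8503 CPM against 2092 in KO replicate 2), a library with few acinar reads. The part of these cells in the acinar levels was not tested, and in bulk RNA fewer cells of a type and less RNA per cell cannot be told apart.

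**Figure D3:**
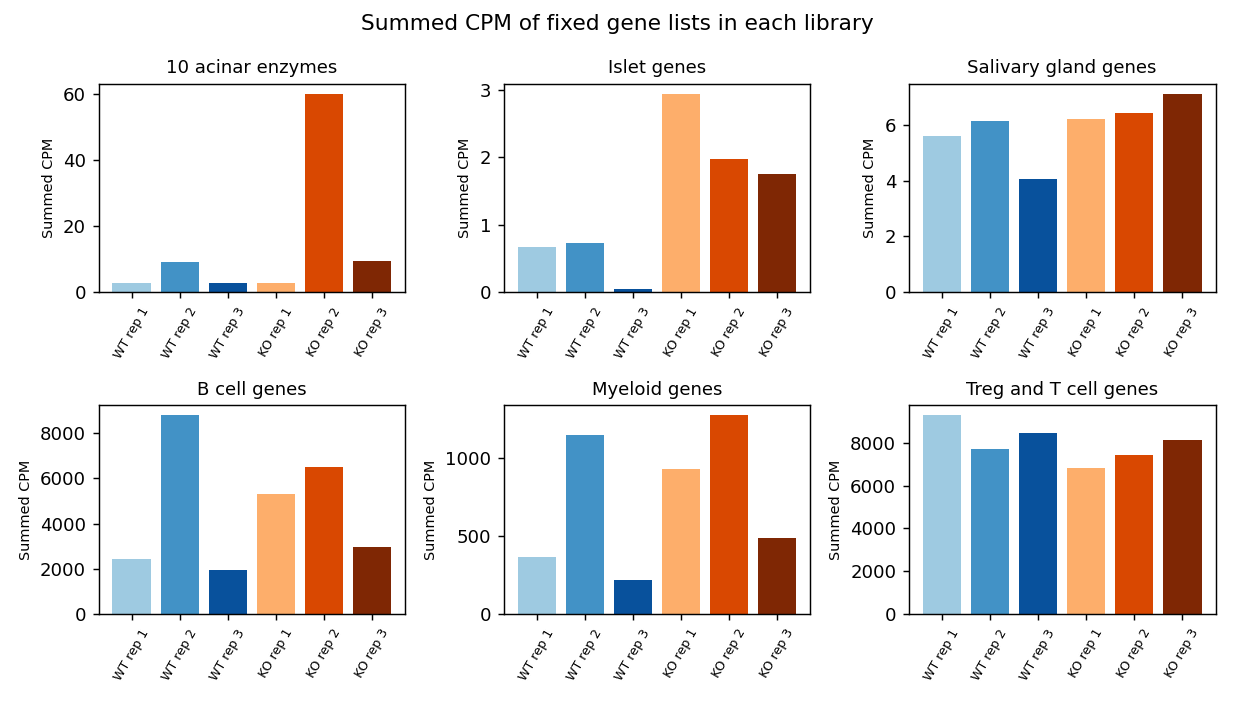
Summed CPM of 6 gene lists in each library (bars from 0, separate scales, 1 library per bar). The acinar panel has 1 tall bar, KO replicate 2 at 60.2 CPM, while B cell and myeloid sums are high in both WT replicate 2 and KO replicate 2 and the Treg and T cell sum stays between 6834 and 9285 CPM.

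Prss2 and Try4 have a feature that no other gene of the 10 has: mouse trypsinogen genes lie within the T cell receptor beta locus (Tcrb), which Tregs transcribe. Both sit between Trbv1 and the diversity segment Trbd1, and Prss2 ends 8122 bases before Trbd1 and Try4 227669 bases before it. Trbd1 had 248, 175 and 267 counts in WT and 189, 190 and 239 in KO, and the variable segment Trbv31 had 855, 511 and 1007 in WT and 927, 675 and 950 in KO. For both segments WT replicate 2 had the lowest count, and KO replicate 2 was not the highest. Prss2, the trypsinogen gene nearest to Trbd1, had at least 23 counts in every library. The more distant ones followed here were highest in KO replicate 2 and next in WT replicate 2, with at most 10 counts in any other library. Try5 had 0, 34 and 3 counts in WT and 2, 144 and 4 in KO. Try10 had 1, 13 and 3 in WT and 2, 66 and 10 in KO, and Prss1 had 1, 7 and 0 in WT and 0, 23 and 1 in KO. By contrast 2210010C04Rik, a protein-coding gene between Trbv1 and Trbd1 picked after its values were seen, was highest in WT replicate 2. It had 0, 28 and 0 counts in WT and 0, 11 and 1 in KO. Prss3 had at most 9 counts, in KO replicate 2. Whether reads of Prss2 came from trypsinogen mRNA or from transcription of the receptor locus was not tested.

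**Figure D4:**
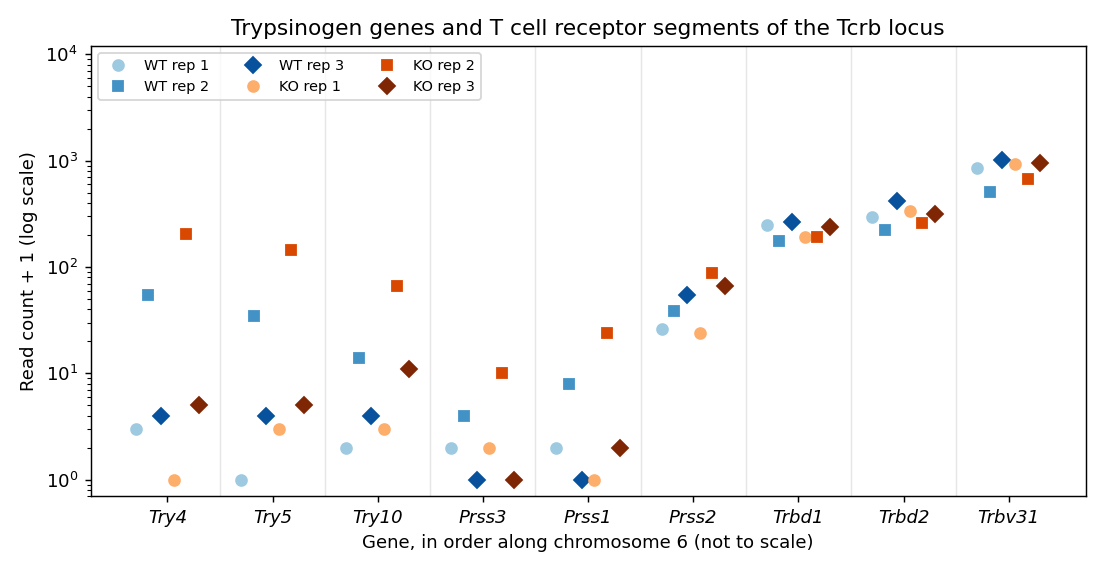
Read count plus 1 (log scale) of 6 trypsinogen genes and 3 T cell receptor segments in their order along chromosome 6, 1 point per library. Prss2 and the receptor segments had at least 23 counts in each library. The other 5 trypsinogen genes were highest in KO replicate 2 and next in WT replicate 2.

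Without Amy2a5, Prss2 and Try4, the genes with copies or inside Tcrb, the remaining 7 summed to 56, 154 and 31 counts in WT and 13, 896 and 146 in KO. The sum in KO replicate 2 was then 15.8 times the median of the others, and the mean log2 was 0.88 higher in KO than in WT. Only KO replicate 2, at 25.6 CPM, lay above all WT libraries, which stood at 1.62, 4.50 and 0.768 CPM. KO replicates 1 and 3 stood at 0.344 and 3.93 CPM. KO replicate 1 thus lay below all WT libraries and KO replicate 3 below WT replicate 2, so the higher KO mean rested on KO replicate 2. The size of the difference without that library was not computed.

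Genes whose levels over the 6 libraries were most like the 10-gene sum were ranked by Pearson's r of log2(CPM + 0.5), among 21569 genes outside the acinar lists with at least 50 counts in all. The highest were Uspl1 (r = 0.993), Gm37886 (0.992), Zfp383 (0.990), Fam111a (0.989), Tmed9 (0.987), Snapc2 (0.987), Gm16421 (0.987), Gm31374 (0.984), Meis1 (0.982) and Hsh2d (0.981). In all, 182 genes had r above 0.9 over these 6 points, which share their libraries. Without KO replicate 2, r for the 10 named genes lay between 0.917 and 0.998 over 5 libraries. The ranking had used these 5 libraries too, so these values are no independent check of it. The first of them, Uspl1, varied only from 33.2 to 45.9 CPM. By the ratio of KO replicate 2 to the next library after 0.5 CPM was added, the leading genes outside the acinar lists were Kcnf1 (9.02), Ighv1-11 (7.11), Gm29106 (6.03), Gm45630 (5.43), Disp2 (5.04), Dmbt1 (4.86), Olfml2a (4.83), Lhx1 and Wnt9b (both 4.71) and Frmpd1 (4.66). Kcnf1, a potassium channel subunit gene, had 217 counts in KO replicate 2, 9 in KO replicate 3 and 0 in the other 4.

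Other libraries also held genes of their own. At least 2-fold over the next library after 0.5 CPM was added were 156, 310 and 169 genes in WT replicates 1, 2 and 3 and 293, 313 and 191 in KO replicates 1, 2 and 3. Genes with 50 or more counts in 1 library and 0 elsewhere numbered 3, 13 and 7 in WT and 13, 12 and 7 in KO. Cpb1 was 1 of the 12 in KO replicate 2, and the highest count of a gene seen in 1 library alone was 155 in KO replicate 1, 159 (Cpb1) in KO replicate 2 and 161 in KO replicate 3.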

How the data were processed

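RNA of FACS-sorted Tregs from 3 WT and 3 KO libraries was measured by single-read sequencing of 50 bases after SMARTer amplification, per the labels' protocols. The authors deposited raw read counts per Ensembl gene, 1 table per library. The tools named in the submitters' processing notes are bcl2fastq 2.19.0.316, STAR 2.3 and featureCounts, on build mm10; annotation release, counting options and strand were not given in the sources used here. Near-identical copies had equal deposited counts, so reads of several places were counted at each, which raises the levels of amylase and trypsinogen copies.

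Counts were fitted over all genes with edgeR 4.0.16 in R 4.3.3 (filterByExpr, TMM, robust quasi-likelihood F test, two-sided, genotype only, Benjamini-Hochberg adjustment, threshold 0.05), and with DESeq2 1.42.0 as an alternative. The edgeR procedure was tested on simulated data. CPM used TMM library sizes. Poisson and binomial intervals are exact, at 95%. Libraries of a genotype varied by 51.0% (coefficient of variation from a common dispersion of 0.260). Positions and symbols came from GENCODE M21 on GRCm38, the assembly mm10 names. Scaling, filtering, a replicate block, the number in the file names and leaving out libraries were varied. The 10 genes and all lists were chosen with earlier results of these data known. Named genes are the 10, those of the acinar lists with most reads or at 0, 2 or more with most reads of each other list, and the 10 leading genes by correlation and by ratio to the next library; Amy2a1, Rnase1, Cel, Pnliprp1, Ctrc, Ctrl, Zg16, Gp2, Gata6, Rbpjl, Ahsg, the C1q genes, the smaller trypsinogen genes, the tissue genes at 0 and the T cell receptor segments were added after their values were seen.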

Additional observations from a re-analysis of the deposited data

How the results depend on the processing

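The number of genes called between KO and WT stayed at 0 in edgeR with RLE factors, library totals, no filter, a term for the number in the file names, the replicate block and each library left out, and was 63 with DESeq2. Without KO replicate 2, it was 75 with DESeq2, and between 0 and 3 with another library left out. The 10-gene sum in KO replicate 2 over the median of the others lay between 9.99 and 21.5 with a library left out, and between 15.8 and 21.7 under other scalings and without copied or Tcrb genes. The KO minus WT difference in mean log2 of the 10-gene sum was 3.57 within the libraries sharing KO replicate 2's number and 0.93 in the rest. It was 0.33 to 2.54 with a library left out. With the replicate block it stayed at 1.51 by arithmetic, since each replicate number has a library of both genotypes, so that value is no check. With the replicate block the log2 difference was 2.94 for Amy2a5, 0.45 for Prss2 and 1.25 for Cela2a, and no call changed. Deviations of same-numbered libraries correlated at -0.09, 0.19 and 0.04. With 3 libraries per genotype, these values cannot show whether the numbers pair the samples. Amy2a5, Prss2, Cela2a and the 10-gene sum kept their direction under the alternatives to the comparison of all libraries, including each library left out. For alternatives to the fit without KO replicate 2, directions were not compared. The sum without copied or Tcrb genes was not rerun without KO replicate 2, and its higher KO mean rested on that library. The cause of these shifts was not tested. Dropping copies from the KO minus WT sum, scaling the share of counts and leaving out a further library were chosen after seeing the data. Where a library has 0 counts of a gene, up to 3 counts cannot be told from none at this depth.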

Other observations

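Inside the T cell receptor beta locus, 2 further genes that are neither among the 10 nor named as trypsinogens by symbol followed another order of libraries. Gm2663 had 26, 0 and 32 counts in WT and 129, 96 and 101 in KO, and 1810009J06Rik had 23, 0 and 35 in WT and 122, 83 and 89 in KO. Both were at 0 in WT replicate 2, the library in which Try4, Try5 and Pnlip were next to highest. These 2 genes were singled out after their values were seen.

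Dmbt1, which encodes a secreted mucosal scavenger protein, had 81 counts in KO replicate 2, 3 in KO replicate 1 and 0 in the other libraries.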
